A study of Rattus norvegicus with 9 samples.

Results

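The 3 ErbB receptor genes Egfr, Erbb2 and Erbb3 and the 5 EGF receptor ligand genes Egf, Areg, Ereg, Hbegf and Tgfa were followed in whole rat tongue on Affymetrix rat expression arrays. Every probe set whose only annotated gene symbol was one of these 8 genes was taken, whatever its values, which gave 11 of 31042 probe sets, with 3 for Egfr, 2 for Tgfa and 1 for each other gene. The 9 arrays fell into 3 groups of 3 tongue samples from male Sprague Dawley rats. In the 4NQO+IL-1Ra group rats drank the carcinogen 4-nitroquinoline-1-oxide (4NQO) at 0.002% and, after the 4NQO weeks, received injections of the interleukin-1 receptor antagonist IL-1Ra under the tongue mucosa. In the 4NQO group rats drank the same 4NQO and received saline injections instead. Normal rats drank distilled water without 4NQO, and the methods name no injections for them. In comparisons with normal tongues 4NQO and tongue injection therefore cannot be told apart. The labels give 22 weeks of 4NQO, and the study's methods give 14 weeks followed by weekly injections to week 22. By the methods the rats of this experiment were killed at the end of week 22, while the labels carry the wider range of weeks 14 to 22. The age of the rats and the lesion stage of each tongue are not known here. The arrays held bulk tongue, so fewer cells of a type and less RNA per cell cannot be told apart.

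The EGF receptor is a tyrosine kinase of the epithelial cell surface. Its ligands are made as membrane-anchored precursors that proteases release, and a bound receptor pairs with itself or with ErbB2, which has no ligand of its own, or with ErbB3, whose kinase is weak and which recruits phosphatidylinositol 3-kinase. The paired receptors feed the Ras-MAPK, PI3K-Akt and STAT3 routes, and in stratified squamous epithelium such as that of the tongue this family is known for driving keratinocyte growth and migration.

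Intensities are given below as log2 of the deposited probe set values, and a difference is the mean of the group named first minus the mean of the group named second. The lower quartile of all probe sets lay between 3.60 and 3.78 on the 9 arrays, and a value at or under it is called near background. Groups were compared with limma over all 9 arrays, with p-values adjusted over all 31042 probe sets in each comparison, and a probe set was called at an adjusted p under 0.05. The 3 comparisons share arrays in pairs and are not independent of each other. The labels do not tie samples to animals, but the study's methods describe rat tongues picked at random within each group, so the p-values rest on the spread between tongues. Between arrays the correlation over all probe sets was 0.967 to 0.995. Within a group, the SD of the median probe set was 0.15 in 4NQO+IL-1Ra, 0.19 in 4NQO and 0.11 in normal tongues.

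Egf was the only member called in any comparison, and it was lower in 4NQO+IL-1Ra than in 4NQO tongues. For 4NQO against normal, 0 of 11 probe sets were called by limma, while 9.41% of all probe sets were called higher and 5.44% lower. At an unadjusted p under 0.05 there were 4 of 11, against 32.9% of all probe sets. Between 4NQO+IL-1Ra and 4NQO tongues, 0 were called higher and 1 lower, while 1.59% of all probe sets were called higher and 0.731% lower. At an unadjusted p under 0.05 there were 4 of 11 in that comparison, against 19.0% of all probe sets. Between 4NQO+IL-1Ra and normal tongues, 0 of 11 were called by limma, with 5 of 11 at an unadjusted p under 0.05 against 22.7% of all probe sets. In that comparison 1.33% of all probe sets were called higher and 0.541% lower. The median difference over the 11 probe sets was 0.05 for 4NQO against normal, 0.26 for 4NQO+IL-1Ra against 4NQO and 0.47 for 4NQO+IL-1Ra against normal, beside medians of 0.01, -0.02 and -0.01 over all probe sets. Egfr enters these medians 3 times and Tgfa 2 times. With the brightest probe set of each of the 8 genes the medians were 0.14, 0.12 and 0.39 in the same order. In each comparison 3 of those 8 had an unadjusted p under 0.05 from limma.

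**Figure D1:**
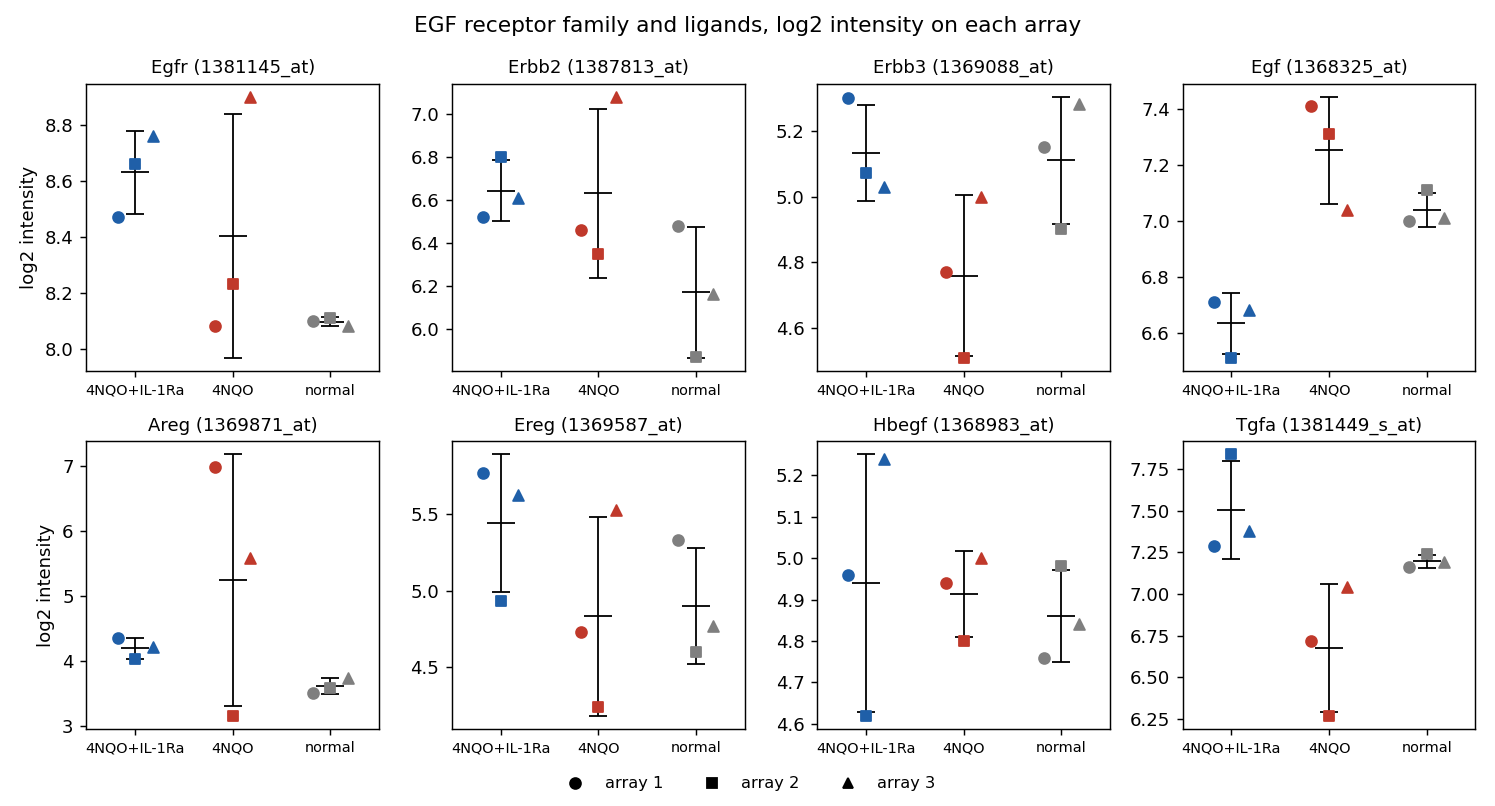
Log2 intensity of the 8 genes on each array (y axis, scaled separately for each gene) in 4NQO+IL-1Ra, 4NQO and normal tongues, with the probe set of highest mean for each gene. Symbols mark the arrays and bars the mean ± SD (n = 3). Egf lay lowest on the 4NQO+IL-1Ra arrays and Tgfa lowest on the 4NQO arrays, and the 4NQO arrays of Areg ran from 3.16 to 6.98.

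**Figure D2:**
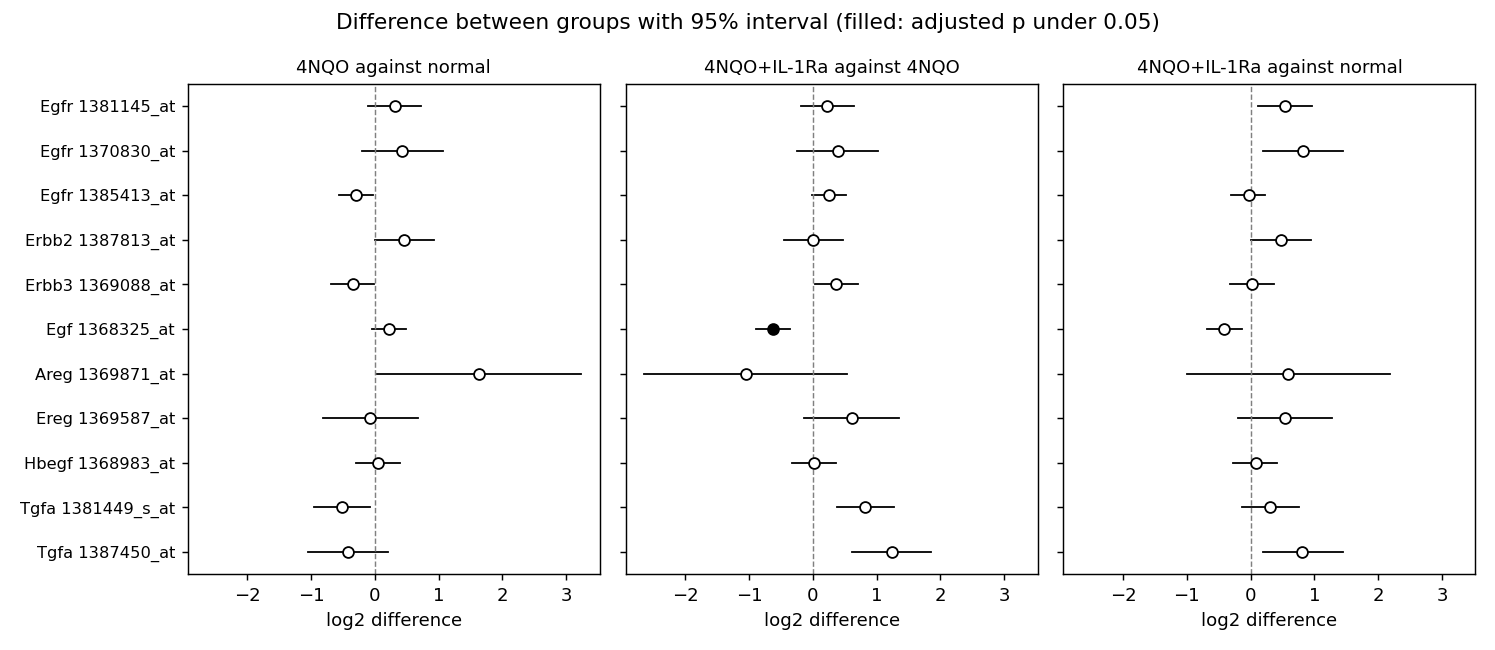
Log2 difference (x axis) of the 11 probe sets in the 3 comparisons, with 95% intervals from limma. The filled point, Egf in 4NQO+IL-1Ra against 4NQO, had an adjusted p of 0.0312, and the widest intervals were those of Areg.

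Among the receptors, Egfr was read by 3 probe sets, of which the brightest read 8.47, 8.66 and 8.76 on the 4NQO+IL-1Ra arrays, 8.08, 8.23 and 8.90 on the 4NQO arrays and 8.10, 8.11 and 8.08 on the normal arrays. The 3 4NQO+IL-1Ra values lay above all normal values, while the 4NQO values spanned both groups, with 1 high array. The difference was 0.54 for 4NQO+IL-1Ra against normal (95% interval 0.12 to 0.96, adjusted p = 0.136), a 1.45-fold higher mean that did not pass the adjusted threshold. It was 0.31 ± 0.19 (SE) for 4NQO against normal (adjusted p = 0.28) and 0.23 ± 0.19 for 4NQO+IL-1Ra against 4NQO (adjusted p = 0.558). Without 4NQO array 3 the last difference was 0.47 (adjusted p = 0.0445). In that fit 4NQO+IL-1Ra against normal kept its value of 0.54 with an adjusted p of 0.027. Without 4NQO array 1 or 2, 4NQO+IL-1Ra against 4NQO gave 0.07 (adjusted p = 0.885) or 0.14 (adjusted p = 0.797). Neither of these 2 comparisons was called with any other array left out.

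The second brightest Egfr probe set followed the first. It read 6.66, 7.53 and 7.66 on the 4NQO+IL-1Ra arrays, 6.82, 6.48 and 7.38 on the 4NQO arrays and 6.56, 6.60 and 6.22 on the normal arrays. All 4NQO+IL-1Ra values again lay above the normal ones, the closest pair 6.66 against 6.60, and the difference was 0.82 (95% interval 0.19 to 1.45, adjusted p = 0.13). The third stayed close to background, at 3.83 to 4.08 in 4NQO+IL-1Ra, 3.66 to 3.69 in 4NQO and 3.86 to 4.17 in normal tongues, and its difference for 4NQO against normal was -0.29 (adjusted p = 0.122). Over the 9 arrays, which include the group differences, the first 2 probe sets correlated at r = 0.866, and the third correlated with them at -0.117 and -0.122.

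**Figure D3:**
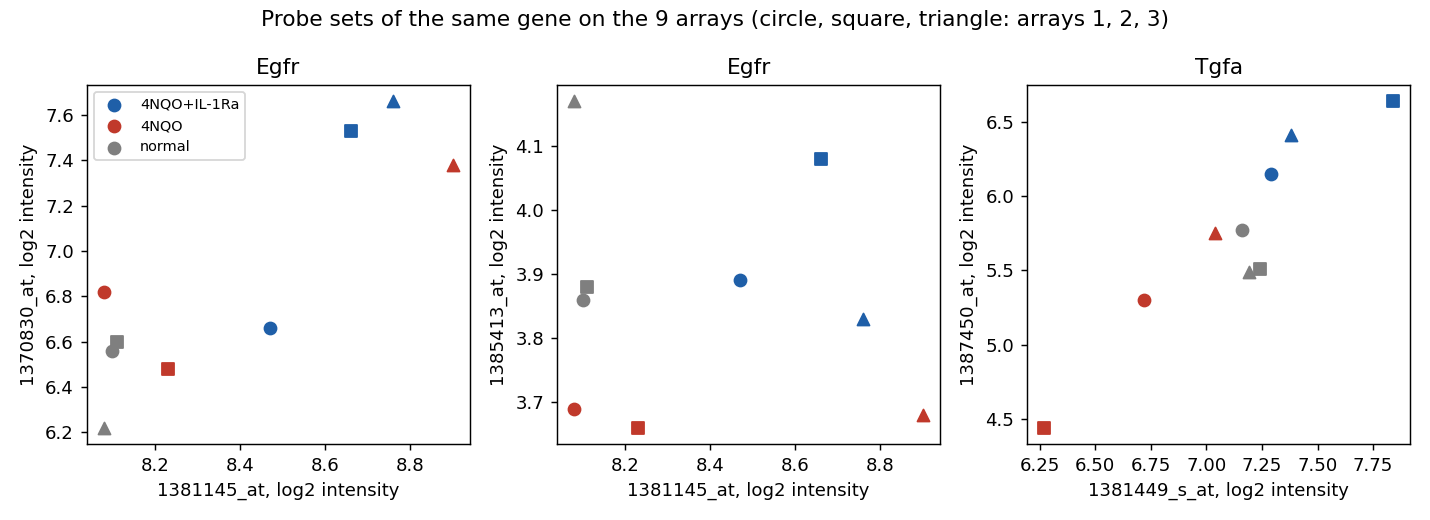
Log2 intensity of pairs of probe sets of the same gene on the 9 arrays (left and centre Egfr, right Tgfa), coloured by group. The 2 brighter Egfr probe sets (r = 0.866) and the 2 Tgfa probe sets (r = 0.932) ran together over the arrays, and the dim Egfr probe set did not follow (r = -0.117).

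Erbb2, the receptor without a ligand of its own, read 6.52, 6.80 and 6.61 on the 4NQO+IL-1Ra arrays, 6.46, 6.35 and 7.08 on the 4NQO arrays and 6.48, 5.87 and 6.16 on the normal arrays. The 2 groups given 4NQO had like means, with a difference of 0.01 between 4NQO+IL-1Ra and 4NQO (95% interval -0.45 to 0.48, adjusted p = 0.982). Against normal, the difference was 0.47 for 4NQO+IL-1Ra (adjusted p = 0.213) and 0.46 for 4NQO (adjusted p = 0.155). Neither passed the threshold, and the 4NQO values overlapped the normal ones.

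Erbb3, the PI3K-recruiting partner, had its lowest mean in 4NQO tongues. It read 5.30, 5.07 and 5.03 on the 4NQO+IL-1Ra arrays, 4.77, 4.51 and 5.0 on the 4NQO arrays and 5.15, 4.90 and 5.28 on the normal arrays. The 4NQO+IL-1Ra values lay above all 4NQO values, the closest pair 5.03 against 5.0, with a difference of 0.37 (95% interval 0.03 to 0.71, adjusted p = 0.227). The difference was -0.35 for 4NQO against normal (adjusted p = 0.142) and 0.02 for 4NQO+IL-1Ra against normal (95% interval -0.32 to 0.36, adjusted p = 0.955).

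The results on the ligands turned on Egf, Tgfa and Areg, and the sequences at their start sites are shown as a description. RefSeq windows of 300 bases on the build GRCr8, from 250 before to 50 after the annotated start and written 5′ to 3′ on the gene's strand, were at hand for 6 of the 8 genes. Capitals mark matches on either strand to a TATA box (TATAAA), an AP-1 site (TGANTCA), a cyclic AMP response element (TGACGTCA) or a GC box (GGGCGG), and no 2 matches overlapped in these windows.
Egf (chr2:220976248-220976547, minus strand): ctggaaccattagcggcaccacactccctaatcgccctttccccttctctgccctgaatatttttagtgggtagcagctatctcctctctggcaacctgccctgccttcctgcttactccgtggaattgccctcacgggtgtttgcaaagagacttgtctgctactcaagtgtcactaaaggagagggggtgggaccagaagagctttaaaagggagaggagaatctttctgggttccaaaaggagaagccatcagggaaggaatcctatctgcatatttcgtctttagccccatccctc
Tgfa (chr4:120175469-120175768, plus strand): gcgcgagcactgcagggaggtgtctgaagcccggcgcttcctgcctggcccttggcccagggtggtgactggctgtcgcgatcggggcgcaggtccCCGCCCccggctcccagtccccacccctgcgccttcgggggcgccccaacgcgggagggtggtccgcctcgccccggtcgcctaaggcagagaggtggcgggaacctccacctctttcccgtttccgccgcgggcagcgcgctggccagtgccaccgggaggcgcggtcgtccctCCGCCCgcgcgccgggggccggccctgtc
Areg (chr14:17265592-17265891, minus strand): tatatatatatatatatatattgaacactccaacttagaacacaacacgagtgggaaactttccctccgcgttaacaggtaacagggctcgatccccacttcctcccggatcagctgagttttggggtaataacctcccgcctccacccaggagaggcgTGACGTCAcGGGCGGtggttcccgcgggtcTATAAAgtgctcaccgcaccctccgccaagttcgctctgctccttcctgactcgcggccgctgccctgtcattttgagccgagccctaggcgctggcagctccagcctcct
The Egf window held none of the 4 motifs, the Tgfa window held 2 GC boxes, and the Areg window held a cyclic AMP response element at position 160, a GC box at 169 and a TATA box at 190, counted from 1 at the window's 5′ end. Of 33469 RefSeq windows of the same length, 1.83% held the cyclic AMP response element, 14.2% the TATA box, 7.33% the AP-1 site and 33.1% the GC box. GC content was 51.0% for Egf, 76.7% for Tgfa and 56.0% for Areg, beside a median of 51.7% over all windows. The windows of Egfr and Erbb2, not printed, held 1 GC box each, and that of Hbegf held none of the 4 motifs. These are matches of letters in the reference and not measured sites, and a link to the array values was not tested.

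Egf, the founding ligand of the family and in rodents a product of salivary glands and kidney, was lowest in 4NQO+IL-1Ra tongues. It read 6.71, 6.51 and 6.68 on the 4NQO+IL-1Ra arrays, 7.41, 7.31 and 7.04 on the 4NQO arrays and 7.0, 7.11 and 7.01 on the normal arrays. All 4NQO+IL-1Ra values lay under all values of both other groups. Against 4NQO the difference was -0.62 ± 0.12 (SE, 95% interval -0.89 to -0.35), a mean 0.649 times that of 4NQO tongues with an adjusted p of 0.0312 from limma. Against normal it was -0.41 (95% interval -0.68 to -0.14, adjusted p = 0.0935), and for 4NQO against normal it was 0.22 (adjusted p = 0.238). The call against 4NQO was lost when 8 of the 9 arrays were left out in turn, with adjusted p from 0.0539 to 0.125, and was kept without 4NQO array 3 (adjusted p = 0.0093). Over those 9 fits the difference stayed between -0.73 and -0.55, and the highest unadjusted p was 0.00258. Salivary gland markers, at 3.91 to 5.33 in 4NQO+IL-1Ra, 3.78 to 4.06 in 4NQO and 4.06 to 4.12 in normal tongues as a mean over 7 genes, were highest on 4NQO+IL-1Ra array 2, where Egf was lowest. On that array Lipf read 7.96 and Lcn1 7.09, beside 3.26 to 3.77 and 2.69 to 2.96 on the other 8 arrays. The 7 markers did not share a direction between 4NQO+IL-1Ra and 4NQO, with -0.34 for Amy1 and -0.04 for Pip against 0.43 for Muc5b and 0.46 for Lpo, none called, and their part in the Egf difference was not tested.

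Tgfa, which encodes the ligand TGF-alpha that epithelial cells make for their own EGF receptors, ran opposite to Egf across the groups. Its brighter probe set read 7.29, 7.84 and 7.38 on the 4NQO+IL-1Ra arrays, 6.72, 6.27 and 7.04 on the 4NQO arrays and 7.16, 7.24 and 7.19 on the normal arrays. Each 4NQO value lay under every value of the other groups. The difference was 0.82 for 4NQO+IL-1Ra against 4NQO (95% interval 0.38 to 1.27, adjusted p = 0.0654), -0.52 for 4NQO against normal (95% interval -0.96 to -0.08, adjusted p = 0.103) and 0.30 for 4NQO+IL-1Ra against normal (adjusted p = 0.391).

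The dimmer Tgfa probe set ranked the groups alike except that 1 4NQO array overlapped the normal ones. It read 6.15, 6.64 and 6.41 on the 4NQO+IL-1Ra arrays, 5.30, 4.44 and 5.75 on the 4NQO arrays and 5.77, 5.51 and 5.49 on the normal arrays. The difference for 4NQO+IL-1Ra against 4NQO was 1.24 (95% interval 0.61 to 1.86), a 2.36-fold higher mean with an adjusted p of 0.0526 that missed the threshold. Without 4NQO array 3 the differences were 1.00 (adjusted p = 0.0184) and 1.53 (adjusted p = 0.0111) for the brighter and the dimmer probe set. Leaving out that array also raised the calls over all probe sets from 722 to 2353. No other left-out fit called either probe set, with adjusted p of 0.0997 to 0.201 for the brighter and 0.0697 to 0.178 for the dimmer. Their smallest differences, without 4NQO array 2, were 0.62 and 0.87. The 2 Tgfa probe sets correlated at r = 0.932 over the 9 arrays, and the brighter one correlated with Egf at -0.875. Both correlations include the differences between groups and arrays, and they carry no test.

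Areg encodes amphiregulin, a ligand that epithelial cells make in wounds and inflammation, and it was the member that varied most between 4NQO tongues. It read 4.35, 4.03 and 4.21 on the 4NQO+IL-1Ra arrays, 6.98, 3.16 and 5.59 on the 4NQO arrays and 3.50, 3.59 and 3.74 on the normal arrays. The 4NQO arrays held its 2 highest values and its lowest, and 3.16 and all 3 normal values lay under the lower quartile of their arrays. The 4NQO+IL-1Ra values stood apart from the normal values, the closest pair 4.03 against 3.74. The SD within the 4NQO group was 1.93, and of the 31042 probe sets 11 had a larger one. The difference was 1.63 ± 0.71 (SE) for 4NQO against normal (95% interval 0.04 to 3.23, adjusted p = 0.143), -1.05 for 4NQO+IL-1Ra against 4NQO (adjusted p = 0.468) and 0.59 for 4NQO+IL-1Ra against normal (adjusted p = 0.659). The SE of 0.71 pools the 3 groups and serves all 3 comparisons, while the SD was 0.16 in 4NQO+IL-1Ra and 0.12 in normal tongues. For 4NQO+IL-1Ra against normal, limma called Areg in 1 of 16 other settings (adjusted p = 0.0281), and in no left-out fit (lowest adjusted p 0.241).

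The Areg comparisons depended on 4NQO array 2. Without that array the difference was 2.67 for 4NQO against normal (adjusted p = 0.00515) and -2.09 for 4NQO+IL-1Ra against 4NQO (adjusted p = 0.0196). Without 4NQO array 1 they were 0.77 and -0.18, and neither was called. The member probe sets as a group ran low on 4NQO array 2, which held the lowest value of its group for 9 of the 11, against 31.6% of all probe sets. The array 3 of that group held the highest for 8 of the 11, against 34.4% of all probe sets. Fibroblast markers were also lowest on 4NQO array 2, at 9.07 beside 10.77 and 10.06 on the other two 4NQO arrays as a mean over 6 genes, and keratinocyte markers were highest on 4NQO array 3, at 12.53 beside 11.78 and 11.71 as a mean over 7 genes. Their part in these results was not tested.

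**Figure D4:**
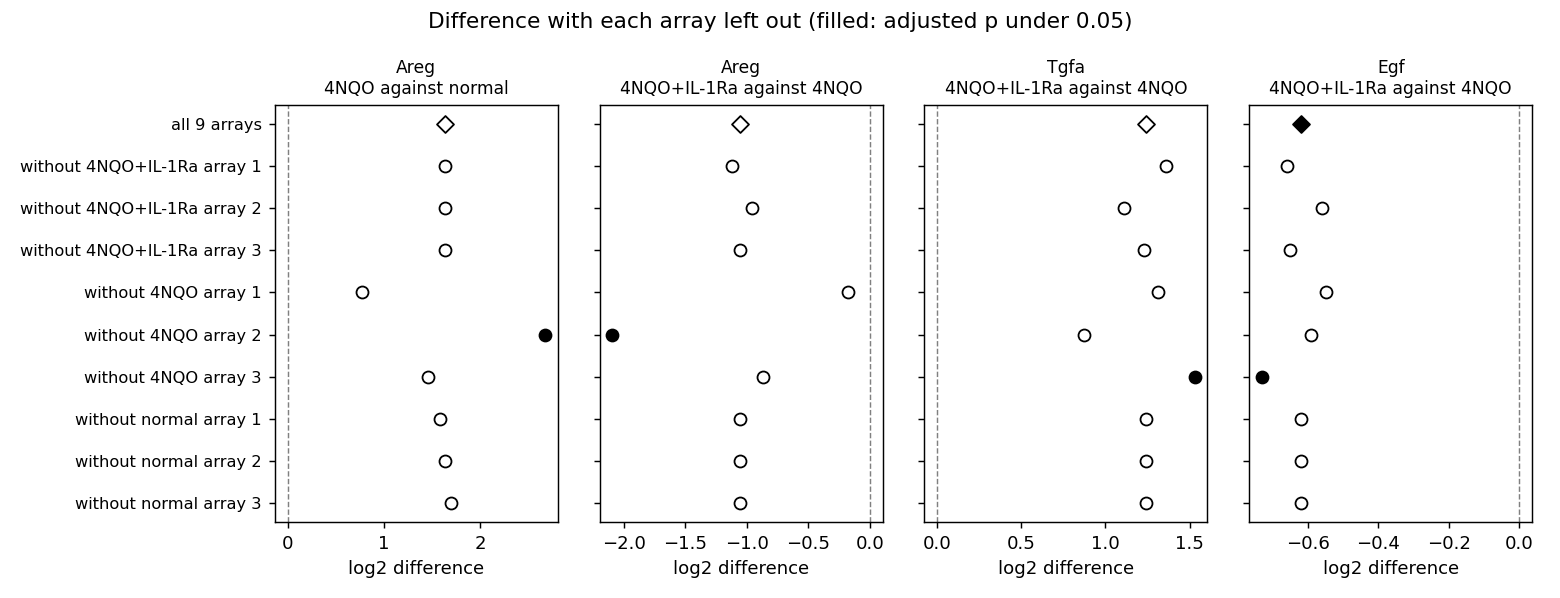
Log2 difference (x axis) of Areg, Tgfa (dimmer probe set) and Egf with all 9 arrays (diamond) and with each array left out in turn (circles). Filled symbols had an adjusted p under 0.05 in limma. Areg reached 2.67 and -2.09 without 4NQO array 2, while Egf stayed between -0.73 and -0.55 throughout.

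Ereg and Hbegf showed no difference that passed the threshold. Ereg encodes epiregulin, and read 5.77, 4.93 and 5.63 on the 4NQO+IL-1Ra arrays, 4.73, 4.24 and 5.53 on the 4NQO arrays and 5.33, 4.6 and 4.77 on the normal arrays. The groups overlapped in all 3 comparisons, with differences of 0.61 for 4NQO+IL-1Ra against 4NQO (95% interval -0.14 to 1.35), 0.54 for 4NQO+IL-1Ra against normal (95% interval -0.20 to 1.28) and -0.07 for 4NQO against normal (95% interval -0.81 to 0.68). Hbegf encodes heparin-binding EGF-like growth factor, and read 4.96, 4.62 and 5.24 on the 4NQO+IL-1Ra arrays, 4.94, 4.80 and 5.0 on the 4NQO arrays and 4.76, 4.98 and 4.84 on the normal arrays. Its 3 differences were 0.02 to 0.08, and their 95% intervals lay within -0.32 and 0.42. Adjusted p was 0.361 to 0.905 for Ereg and 0.804 to 0.953 for Hbegf.

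Areg and Ereg are neighbours on rat chromosome 14, with Btc on the far side of Areg, and all 3 encode EGF receptor ligands. Btc, which encodes betacellulin, read 4.95, 5.54 and 4.76 on the 4NQO+IL-1Ra arrays, 4.48, 4.49 and 4.82 on the 4NQO arrays and 4.94, 4.91 and 5.03 on the normal arrays. The 4NQO values of Btc lay under the normal values, the closest pair 4.82 against 4.91 (difference -0.36, adjusted p = 0.207). The 4NQO array that read highest for Areg, array 1, was not the highest for Ereg or Btc, and over the 9 arrays Areg and Ereg correlated at r = 0.188.

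Of the other genes measured, those whose pattern over the 9 arrays was most like a member's were ranked by Pearson's r among 12390 genes, as a description that includes the group differences. For Areg they were Tec (r = 0.95), Cxcl1 (r = 0.948) and Serpina3n (r = 0.942). Cxcl1, a neutrophil-attracting chemokine, read 4.43, 4.02 and 3.78 on the 4NQO+IL-1Ra arrays, 6.63, 3.86 and 5.24 on the 4NQO arrays and 3.98, 4.20 and 4.22 on the normal arrays, with the same high, low and middle 4NQO arrays as Areg. The acute-phase gene Serpina3n ran alike, at 8.97, 4.89 and 7.79 on the 4NQO arrays. For Tgfa they were Otub2 (r = 0.982), Ube2a (r = 0.98) and Rab7b (r = 0.97), and for Egf Hsd17b4 (r = 0.982), Tecpr1 (r = 0.967) and Gpr4 (r = 0.965). For Erbb3 the nearest was Klf4 (r = 0.951), a transcription factor of differentiating epithelium. For Egfr it was Ftcd (r = 0.98), for Erbb2 Kti12 (r = 0.987), for Ereg Kcnk1 (r = 0.922) and for Hbegf Apoc1 (r = 0.928).

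Further genes of the pathway were taken from lists by role, with 47 of 59 listed genes measured, each by its brightest probe set. For 4NQO against normal 7 were called higher and 1 lower, for 4NQO+IL-1Ra against 4NQO 1 was called higher and 0 lower, and for 4NQO+IL-1Ra against normal 3 were called higher and 1 lower. Their median difference was 0.12 for 4NQO against normal, -0.02 for 4NQO+IL-1Ra against 4NQO and 0.17 for 4NQO+IL-1Ra against normal. Among the brightest probe sets of all 14217 genes, 12.4% were called higher and 5.08% lower for 4NQO against normal, 1.91% higher and 0.753% lower for 4NQO+IL-1Ra against 4NQO, and 1.66% higher and 0.542% lower for 4NQO+IL-1Ra against normal. The 7 and 1 of 47 called for 4NQO against normal were near that background.

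**Figure D5:**
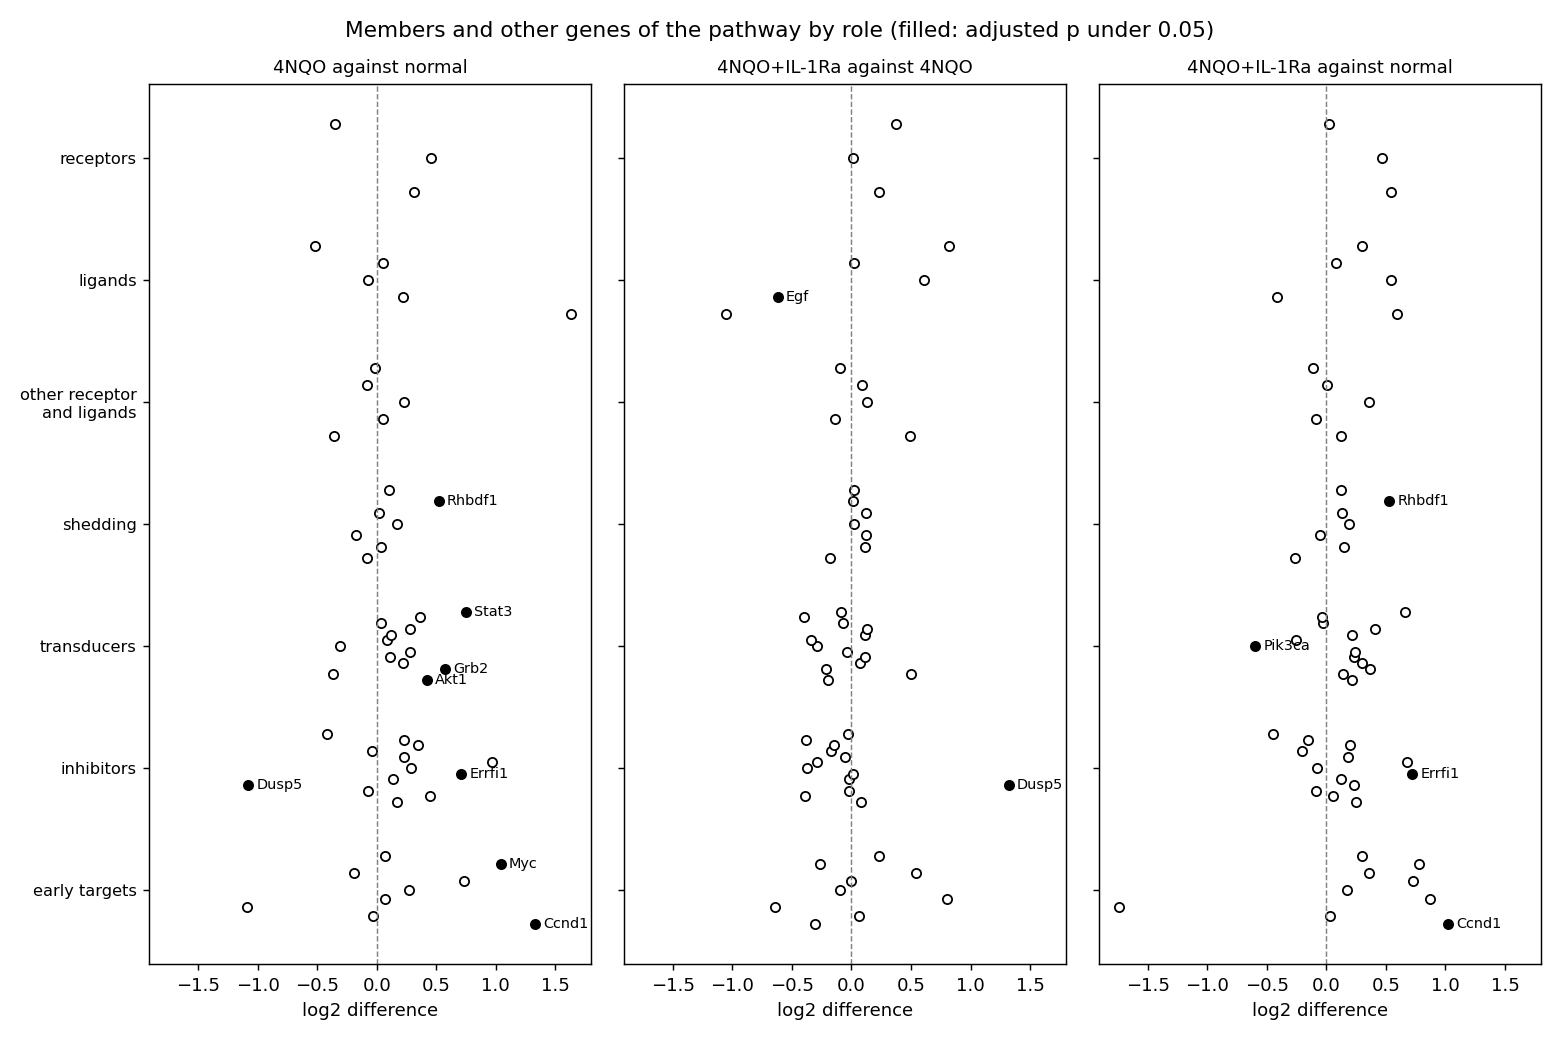
Log2 difference (x axis) of the 8 members and of 47 other pathway genes in the 3 comparisons, grouped by role down the y axis, 1 point per gene. Filled and named points had an adjusted p under 0.05 in limma. Of the 47, 7 were called higher in 4NQO than in normal tongues, and Dusp5 was called in opposite directions in the first 2 comparisons.

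None of the 5 further receptor and ligand genes measured, Erbb4, Btc, Nrg1, Nrg2 and Nrg4, was called, and Erbb4 stayed at 2.44 to 3.06, near background, on all 9 arrays. Of 7 genes of ligand shedding, Rhbdf1, an inactive rhomboid protein that escorts the sheddase ADAM17, was the only one called. It read 7.96, 8.0 and 7.82 on the 4NQO+IL-1Ra arrays, 7.83, 7.89 and 8.04 on the 4NQO arrays and 7.41, 7.35 and 7.42 on the normal arrays. Both groups given 4NQO lay above normal, by 0.53 for 4NQO+IL-1Ra (adjusted p = 0.044) and 0.52 for 4NQO (adjusted p = 0.0133). Adam17 itself differed by 0.15 for 4NQO+IL-1Ra against normal and 0.04 for 4NQO against normal, with neither called.

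Of 13 adaptors and transducers, Grb2, Stat3 and Akt1 were called higher in 4NQO than in normal tongues. Grb2, the adaptor that links the receptor to Ras, read 8.48, 8.49 and 8.64 on the 4NQO+IL-1Ra arrays, 8.85, 8.71 and 8.66 on the 4NQO arrays and 8.13, 8.20 and 8.17 on the normal arrays. Its difference for 4NQO against normal was 0.57 (adjusted p = 0.00979), but its 2 dimmer probe sets gave 0.17 and -0.19. Stat3, a transcription factor that receptor kinases activate, rose by 0.75 (adjusted p = 0.0157), with 0.45 from its dimmer probe set. Akt1, the kinase downstream of PI3K, rose by 0.42 (adjusted p = 0.0266), and its 2 dimmer probe sets gave 0.88 (adjusted p = 0.00473) and 0.10 (adjusted p = 0.761). For 4NQO+IL-1Ra against 4NQO the brightest Akt1 probe set gave -0.20 (adjusted p = 0.332), and the dimmer ones -0.58 (adjusted p = 0.0378) and -0.16 (adjusted p = 0.701). Pik3ca, the catalytic subunit of PI3K, was called lower in 4NQO+IL-1Ra than in normal tongues at -0.60 (adjusted p = 0.0495). Its 5 other probe sets gave -1.13 (adjusted p = 0.0344), -0.25, -0.24, -0.09 and, for the dimmest, 0.31. For 4NQO+IL-1Ra against 4NQO the brightest gave -0.29 (adjusted p = 0.253). The probe set at -1.13 was called lower there too, at -0.86 (adjusted p = 0.0181), while the rest ran from -0.56 to 0.21, none called.

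Of 13 feedback inhibitors and genes of receptor turnover, Errfi1 and Dusp5 were called. Errfi1, which encodes the EGF receptor inhibitor MIG6, read 8.67, 8.81 and 9.0 on the 4NQO+IL-1Ra arrays, 8.87, 8.62 and 8.97 on the 4NQO arrays and 8.13, 7.90 and 8.30 on the normal arrays. Every array of both groups given 4NQO lay above every normal array, with differences of 0.72 for 4NQO+IL-1Ra (adjusted p = 0.0448) and 0.71 for 4NQO (adjusted p = 0.0147).

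Dusp5, a phosphatase that acts on ERK in the nucleus, read 6.79, 7.13 and 6.75 on the 4NQO+IL-1Ra arrays, 5.68, 5.06 and 5.99 on the 4NQO arrays and 7.09, 6.18 and 6.71 on the normal arrays. All 4NQO values lay under those of both other groups. It was higher in 4NQO+IL-1Ra than in 4NQO tongues by 1.32 (95% interval 0.72 to 1.91, adjusted p = 0.0376) and fell by 1.08 (adjusted p = 0.0269) for 4NQO against normal, while 4NQO+IL-1Ra and normal tongues differed by 0.23 (95% interval -0.37 to 0.83). Its lowest 4NQO value, like those of Tgfa and Erbb3, was on 4NQO array 2.

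Of 9 early target genes, Myc and Ccnd1 were called. Myc, a growth-promoting transcription factor, read 7.84, 7.68 and 7.95 on the 4NQO+IL-1Ra arrays, 7.77, 7.98 and 8.50 on the 4NQO arrays and 7.25, 6.80 and 7.09 on the normal arrays. It was higher by 1.04 in 4NQO than in normal tongues (adjusted p = 0.0107). For 4NQO+IL-1Ra against 4NQO the Myc difference was -0.26 (adjusted p = 0.506), with overlapping groups. Ccnd1, which encodes cyclin D1, read 9.48, 9.51 and 9.77 on the 4NQO+IL-1Ra arrays, 9.64, 9.60 and 10.44 on the 4NQO arrays and 8.67, 8.41 and 8.62 on the normal arrays. It was higher than in normal tongues by 1.02 in 4NQO+IL-1Ra (adjusted p = 0.0466) and by 1.33 in 4NQO (adjusted p = 0.00736), and its 2 other probe sets gave 1.02 and 1.08 in 4NQO+IL-1Ra and 1.23 and 1.40 in 4NQO. The median over the 9 early target genes was 0.07 for 4NQO against normal and 0.0 for 4NQO+IL-1Ra against 4NQO. For 4NQO+IL-1Ra against normal the list median was 0.36. The estimates of the genes not called were 0.87 for Fosl1 (adjusted p = 0.183), 0.78 for Myc (adjusted p = 0.0637), 0.73 for Ier3 (adjusted p = 0.193), 0.36 for Junb, 0.30 for Phlda1, 0.17 for Ier2, 0.03 for Egr1 and -1.74 for Fos (adjusted p = 0.291).

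The pathway calls differed in how far they held when an array was left out or the values were processed otherwise. For 4NQO against normal, those of Grb2, Myc and Ccnd1 were kept in all 17 other settings. Rhbdf1 lost its call without normal array 2 (adjusted p = 0.0538) or 3 (adjusted p = 0.0551), Stat3 without normal array 2 (adjusted p = 0.0584) or 3 (adjusted p = 0.0701), and Errfi1 without normal array 2 (adjusted p = 0.0578). With cyclic loess the differences were 0.30 for Rhbdf1 (adjusted p = 0.108), 0.57 for Stat3 (adjusted p = 0.0566) and 0.51 for Errfi1 (adjusted p = 0.0561), and with quantile normalization that of Rhbdf1 was 0.34 (adjusted p = 0.0716). Akt1 lost it without 4NQO array 3 (adjusted p = 0.0509) or normal array 2 (adjusted p = 0.0917) or 3 (adjusted p = 0.107), and Dusp5 without 4NQO array 2 (adjusted p = 0.0578) or normal array 1 (adjusted p = 0.0871) or 3 (adjusted p = 0.094). The Akt1 difference was also not called with quantile normalization, at 0.29 (adjusted p = 0.0978), or with cyclic loess, at 0.24 (adjusted p = 0.166). With only the 6 arrays compared, neither Akt1 (adjusted p = 0.0521) nor Dusp5 (adjusted p = 0.0547) was called. The call of Dusp5 for 4NQO+IL-1Ra against 4NQO was lost in 8 of 17 settings, which included leaving out any 4NQO+IL-1Ra array, 4NQO array 1 or 2, or normal array 3, with adjusted p up to 0.136. The 4 calls for 4NQO+IL-1Ra against normal, of Rhbdf1, Errfi1, Ccnd1 and Pik3ca, were each lost in 9 of 17 settings, which included leaving out any array of those 2 groups or 4NQO array 1, with adjusted p up to 0.185. The direction of each of these calls was kept in all settings.

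Some markers of the cell types in a tongue differed between the groups in level. As a mean over their genes, keratinocyte markers ran at 12.13 to 12.33 in 4NQO+IL-1Ra, 11.71 to 12.53 in 4NQO and 11.37 to 11.81 in normal tongues, with none of the 7 genes under the lower quartile on all arrays. The 4NQO+IL-1Ra values lay above the normal ones by 0.56 (exact permutation p = 0.1, two-sided, the smallest that 3 against 3 allows). Those of the brighter Egfr probe sets, Erbb2, Areg and Tgfa also lay above normal, while those of the dimmest Egfr probe set overlapped normal (difference -0.03). That mean held markers of opposite sign. For 4NQO against normal the basal cell genes differed by 1.40 for Tp63 (adjusted p = 0.0226, the only one called), 1.01 for Krt15, 0.81 for Krt5 and 0.45 for Krt14, while Krt4 and Krt13, keratins of the upper layers, differed by -0.28 and -0.33, and the junction gene Perp by -0.65. For 4NQO+IL-1Ra against 4NQO, Krt4 differed by 0.38, Krt13 by 0.41 and Perp by 1.02 (adjusted p = 0.167, 0.129 and 0.0987). In that comparison Krt15 differed by 0.29, Krt14 by 0.07, Krt5 by -0.26 and Tp63 by -0.41, and none of the 7 was called. The signs of Krt4, Krt13 and Perp were those seen for Tgfa, Erbb3 and Dusp5. Over the fibroblast, leukocyte, salivary gland and Schwann cell markers the median difference shared those signs. In that order it was -1.28, -0.42, -0.23 and -0.17 for 4NQO against normal. For 4NQO+IL-1Ra against 4NQO it was 0.74, 0.49, 0.43 and 0.03. Among the leukocyte markers S100a8 went the other way in both, at 0.82 and -0.26, and Cd3e in the first, at 0.18. Single salivary gland and Schwann cell markers also went the other way. Fibroblast markers ran at 10.55 to 10.95 in 4NQO+IL-1Ra, 9.07 to 10.77 in 4NQO and 11.08 to 11.36 in normal tongues, and endothelial markers at 7.99 to 8.27 in 4NQO+IL-1Ra, 8.29 to 8.80 in 4NQO and 7.77 to 8.01 in normal tongues. For 4NQO against normal the fibroblast mean differed by -1.21, with 5 of 6 genes called lower, beside 5.08% of all genes. The endothelial mean differed by 0.73 there, with 3 of 4 genes called higher, beside 12.4% of all genes. Skeletal muscle markers ran at 12.31 to 12.57 in 4NQO+IL-1Ra, 12.37 to 12.95 in 4NQO and 12.58 to 12.84 in normal tongues, so both the epithelium and the muscle of a tongue were read on every array. For 4NQO+IL-1Ra against 4NQO the muscle gene Ttn was called lower, at -0.72 (adjusted p = 0.0494). Myh2 gave -0.86 without being called (adjusted p = 0.101) and Myh4 0.04, and the median over the muscle markers was -0.15. Leukocyte markers ran at 5.38 to 5.74 in 4NQO+IL-1Ra, 4.78 to 5.58 in 4NQO and 5.26 to 5.41 in normal tongues, with exact permutation p of 0.2 to 0.4 in the 3 comparisons. RNA quality was read from the log2 gap by which 3′ exceeded 5′ control probe sets. For beta-actin it averaged 1.13 in 4NQO+IL-1Ra, 1.20 in 4NQO and 0.80 in normal tongues, for GAPDH 0.27 in 4NQO+IL-1Ra, 0.35 in 4NQO and 0.27 in normal tongues, and for hexokinase 1.98 in 4NQO+IL-1Ra, 1.5 in 4NQO and 1.5 in normal tongues. The part of cell make-up and RNA quality in the results above was not tested.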

How the data were processed

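RNA from tongue tissue was hybridised to an array for each sample. Affymetrix Expression Console and RMA are named in the submitters' processing notes, with no version. The authors deposited RMA intensity values on a linear scale, 1 per probe set and array, and log2 of each was taken here. Because RMA equalises the arrays, a change shared by most genes can be lost. The probe set values still differed in spread between groups. Lower quartiles were 3.73 to 3.78 on normal arrays and 3.60 to 3.70 on the others, and upper quartiles 7.04 to 7.08 and 7.16 to 7.28. With quantile normalization, 4NQO against normal gave 0.16 for the brightest Egfr probe set and 0.03 for Egf, instead of 0.31 and 0.22. The values carry no detection call, and 3 arrays per group limit the precision.

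Of 31099 probe sets, 57 controls were left out. Platform annotation gave 20826 a single symbol, covering 14217 genes. A gene outside the family was represented by its probe set of highest mean. The 3 group means were estimated in a single limma 3.58.1 fit in R 4.3.3 (eBayes, 6 residual and 4.01 prior degrees of freedom). Tests were two-sided, with Benjamini-Hochberg adjustment within each comparison. The fit was tried on simulated data that gave a probe set the same SD in every group. Groups of unequal spread, as in the real arrays, were therefore not covered. Marker lists were compared by exact permutation. All member probe sets were named, with up to 4 called genes of lowest adjusted p from each further list and comparison, and the genes most like each member, from the 3 ranked highest. Btc, Adam17, Erbb4, uncalled early target genes, single markers and the other probe sets of called genes were added after their values were seen. The members and lists were chosen with earlier results of these data known. Each array was left out in turn, and 8 other settings were tried.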

Additional observations from a re-analysis of the deposited data

How the results depend on the processing

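The arrays were rescaled by quantile normalization or cyclic loess, the dimmest 40% of probe sets were left out, and the variance trend, array weights, the arrays in the fit (the 6 compared), an offset of 16 and 1 probe set per gene were tried in turn. Of the 11 family probe sets, 0 were called for 4NQO against normal, 1 with quantile normalization, 1 with array weights and 0 to 1 with each array left out. In 4NQO+IL-1Ra against 4NQO, 1 was called, 3 with quantile normalization, 0 with cyclic loess, 2 without dim probe sets, 3 with array weights, 0 in the 6 arrays and 0 to 4 with each array left out. For 4NQO+IL-1Ra against normal, 0 were called, 4 with array weights, 4 in the 6 arrays and 0 to 2 with each array left out. The Egf call was lost with cyclic loess (adjusted p = 0.0507) and in the 6 arrays (adjusted p = 0.122).

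Over all probe sets, 4610 were called for 4NQO against normal, 2821 with quantile normalization, 2480 with cyclic loess, 2648 with 1 probe set per gene and 851 to 4417 with each array left out. For 4NQO+IL-1Ra against 4NQO, 722 were called, 195 in the 6 arrays, 359 with 1 probe set per gene (fewer tested) and 184 to 2353 with each array left out. In 4NQO+IL-1Ra against normal, 581 were called, 203 with quantile normalization, 97 with cyclic loess, 3556 with array weights, 2714 in the 6 arrays, 1157 with the offset, 326 with 1 probe set per gene and 0 to 2084 with each array left out. The cause was not tested.

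The sign turned only for differences that were not called. With each array left out, Ereg ran from -0.41 to 0.23 for 4NQO against normal, Erbb2 from -0.12 to 0.24 and Hbegf from -0.13 to 0.18 for 4NQO+IL-1Ra against 4NQO, and Erbb3 from -0.09 to 0.10, Hbegf from -0.08 to 0.24 and the dimmest Egfr probe set from -0.11 to 0.07 for 4NQO+IL-1Ra against normal. Array weights gave -0.05 for Hbegf against 4NQO and 0.00 for Erbb3 against normal, and either rescaling gave 0.07 for that Egfr probe set. No paired analysis was possible because the labels give the groups no shared replicate numbers. Probe sets near background, Areg in normal tongues among them, may understate a difference.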
